A study of Caenorhabditis elegans with 2 samples.

Results

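ELT-1 is a GATA transcription factor of Caenorhabditis elegans, and its own gene, elt-1, carried more thresholded ELT-1 binding peaks within 10 kb than any other nuclear protein-coding gene. The gene (WBGene00001249) lies on chromosome IV at 9614995 to 9620280 of the build ce11, on the plus strand, and is 5286 bp long. Every peak summit in the gene or within 10 kb of either end was taken from each of 4 deposited peak lists, a window of 25286 bp. The window held 11 of 1910 peaks in the thresholded list, 21 of 30000 in the list called from both replicates pooled, 21 of 29029 in the replicate 1 list and 25 of 30000 in the replicate 2 list.

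Whole worms of mixed sex at L3, the penultimate larval stage, were used for ChIP-seq (sequencing of DNA recovered with a chromatin protein, here ELT-1 tagged with eGFP). There was 1 group, of 2 biological replicates, from strain OP354, with the genotype unc-119(tm4063) III and the insertion wgIs354, which carries the tagged elt-1. No second genotype, stage or treatment was included, so no contrast between groups was possible, and every value below is a description without a test. The thresholded list was set by the irreproducible discovery rate (IDR), which compares the order of peaks in replicates, and it held the 1910 strongest pooled peaks, called IDR peaks here. Membership does not mean that a peak ranked alike in both replicates. Signal is the authors' own value for each peak, on a scale that the sources used here do not state. It was used to rank peaks within a list and in the ratios, sums and medians given below. Ratios and sums of signal below describe the deposited values and are not amounts of binding. Read depth is unknown. Since the animals carry the tagged insertion beside their native elt-1 gene, reads from the native copy and from the insertion cannot be told apart, and the labels give neither the copy number of the insertion nor the length of elt-1 DNA in it.

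GATA factors bind DNA through zinc fingers that recognise a GATA core, commonly in the form WGATAR, where W is A or T and R is A or G. ELT-1 specifies the epidermis in the embryo and continues to act in the epidermal seam cells of larvae. Several GATA factors, the intestinal factor ELT-2 of the same animal among them, are known to bind their own genes and help to keep them active.

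The strongest element lay in intron 2, just upstream of the inner transcript starts of elt-1. The 299 bp centred on its summit, chrIV:9615575-9615873, plus strand, are shown because this peak had the highest signal of any nuclear peak. The letters come from the RefSeq assembly WBcel235, which is ce11, and run 5′ to 3′ on the plus strand, as do all sequences below. Capitals mark WGATAR on either strand. A site on the minus strand appears as its complement, such as TTATCT for AGATAA.

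intron 2 element: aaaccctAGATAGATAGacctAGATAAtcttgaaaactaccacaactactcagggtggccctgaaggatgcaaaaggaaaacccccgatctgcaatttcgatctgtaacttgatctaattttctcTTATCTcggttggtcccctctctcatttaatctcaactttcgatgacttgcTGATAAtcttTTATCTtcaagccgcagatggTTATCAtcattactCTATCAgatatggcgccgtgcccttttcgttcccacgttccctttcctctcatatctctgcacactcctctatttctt

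This stretch held 8 WGATAR sites, of which 3 read AGATAA, 2 AGATAG, 2 TGATAA and 1 TGATAG, and the pair of AGATAG sites shared bases. The sites nearest the summit were an AGATAA centred 21.5 bp before it, a TGATAA 29.5 bp after it and an AGATAA 39.5 bp after it.

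The next sequences are the 101 bp centred on the summits of the other elements that the results turn on. They are the strongest upstream element (chrIV:9614226-9614326), the strongest in intron 6 (chrIV:9618191-9618291), an upstream element that shares a long run of bases with it (chrIV:9611086-9611186), a TGATAA pair of elements upstream (chrIV:9608095-9608195) and in intron 6 (chrIV:9617524-9617624), and an upstream element of similar signal without WGATAR (chrIV:9613225-9613325).
719 bp upstream: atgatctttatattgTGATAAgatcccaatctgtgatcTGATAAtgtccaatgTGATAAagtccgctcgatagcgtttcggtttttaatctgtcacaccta
intron 6, distal: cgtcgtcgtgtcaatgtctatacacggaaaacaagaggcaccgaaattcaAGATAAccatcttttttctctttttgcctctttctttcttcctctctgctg
3859 bp upstream: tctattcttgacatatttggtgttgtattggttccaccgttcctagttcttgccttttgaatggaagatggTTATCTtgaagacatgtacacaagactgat
6850 bp upstream: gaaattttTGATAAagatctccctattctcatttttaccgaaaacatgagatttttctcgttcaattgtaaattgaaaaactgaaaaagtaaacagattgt
intron 6, proximal: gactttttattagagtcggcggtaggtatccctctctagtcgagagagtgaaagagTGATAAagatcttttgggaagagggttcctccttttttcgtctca
1720 bp upstream: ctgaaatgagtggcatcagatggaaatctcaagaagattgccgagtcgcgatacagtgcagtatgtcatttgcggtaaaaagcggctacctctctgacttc

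The 11 IDR summits lined up over the gene and the DNA upstream of it. Of these, 7 lay upstream of the gene, 4 lay inside it, each in an intron, and 0 lay in the 10 kb downstream. From first to last they spanned 11785 bp, and neighbouring summits were 667 to 1850 bp apart, with a median of 1074.5 bp. All 7 upstream summits fell in the gap of 13299 bp between elt-1 and aat-1, an amino acid transporter gene on the minus strand and the nearest protein-coding gene on that side. The gap is therefore upstream of both genes, and 4 of these summits lay within 10 kb of aat-1. Those 7723 and 6850 bp upstream of elt-1 were nearer to aat-1 than to elt-1. Which gene an upstream element acts on was not tested. On the other side the gap to the small gene W09C2.7 was 1621 bp. The intergenic stretch upstream also holds the non-coding RNA genes W09C2.12 and W09C2.11, and the summit 3189 bp upstream of elt-1 lay inside W09C2.11 (9611700 to 9611843, minus strand). No other IDR summit of the window lay in another gene that was checked, mca-1, a membrane calcium pump gene at the downstream edge, included. The 1 gene of the window for a piRNA, a class of small RNA, was left out and not checked.

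**Figure D1:**
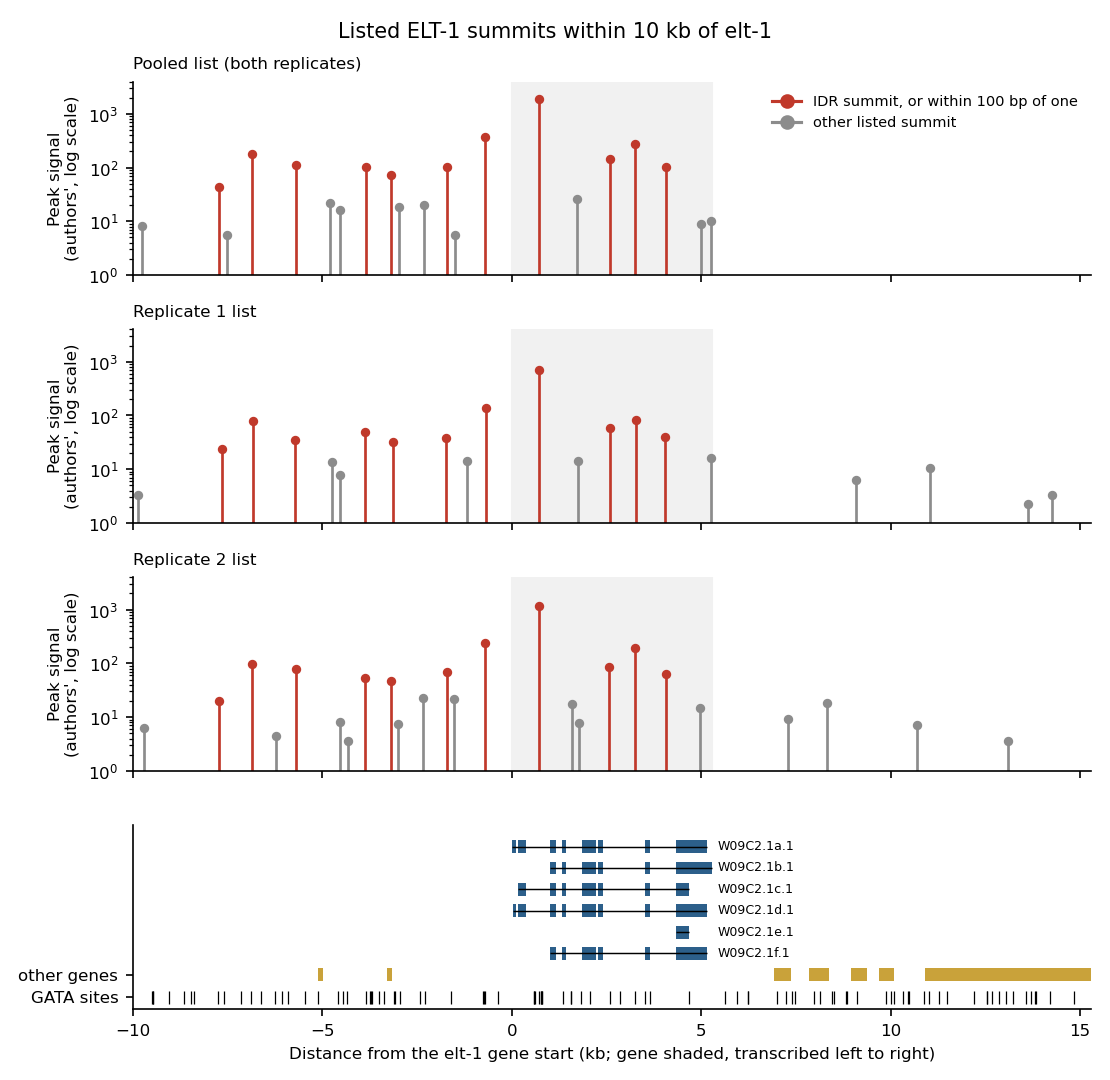
Signal of every listed summit (log scale) in the pooled, replicate 1 and replicate 2 lists, against distance from the elt-1 gene start in kb, with the annotated transcripts (boxes are exons), other genes and WGATAR sites below. Red marks the 11 IDR summits and replicate summits within 100 bp of one, and grey marks other listed summits, which lie below 30 in the pooled list. The red summits run from 7723 bp upstream into the gene, and none lies downstream.

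The annotation gives elt-1 6 transcripts with different starts, which group at 3 places. W09C2.1a starts at the gene start, W09C2.1d 20 bp and W09C2.1c 166 bp further in. W09C2.1f and W09C2.1b start 995 and 1002 bp into the gene, at the end of intron 2 of W09C2.1a, and the single-exon W09C2.1e starts 4343 bp in. Exons and introns are numbered here on W09C2.1a, which has 8 exons. An IDR summit lay upstream of each of the 3 places and within 1 kb of it: 719 bp upstream of W09C2.1a, 266 bp upstream of W09C2.1f, and 281 bp upstream of W09C2.1e.

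The intron 2 element (9615363 to 9615965, summit 9615724) had a signal of 709 in replicate 1 and 1162 in replicate 2, and of 1858 in the pooled and IDR lists. It ranked 3 in replicate 1, 1 in replicate 2 and 2 in the IDR list, and every peak above it in any list was mitochondrial. Intron 2 is 629 bp long, and the 603 bp peak covered most of it, ending 25 bp before the W09C2.1f start. Its IDR signal was 3.93 times that of the next nuclear peak, which had 472 and lay on chromosome V. Against the next nuclear peak of the same list, the ratio was 3.63 in replicate 1 and 3.92 in replicate 2. Within the window it was 4.96 times the second strongest IDR peak, 5.10 times in replicate 1 and 4.89 times in replicate 2. It held 55.2% of the summed IDR signal of the window.

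The element 719 bp upstream of the gene start (9614129 to 9614473) was the second strongest of the window. Its signal was 139 in replicate 1 (rank 25) and 238 in replicate 2 (rank 8), and its IDR signal of 375 ranked 12. It is the element nearest to the outermost start, and the 3 TGATAA sites at its summit all lay on the plus strand.

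Intron 6, the longest intron at 1091 bp, held a pair of IDR summits. The distal one (9618110 to 9618393), 3246 bp into the gene, had a signal of 82.0 in replicate 1 and 195 in replicate 2, and its IDR signal of 276 ranked 22. The proximal one (9617419 to 9617680), 2579 bp into the gene, had 59.4 in replicate 1 and 85.0 in replicate 2, and its IDR signal of 143 ranked 65. The order of this pair was the same in both replicates. Intron 7 held the remaining intronic element (9618990 to 9619136), with 39.3 in replicate 1, 63.5 in replicate 2 and an IDR signal of 103 (rank 144).

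The 6 more distant upstream elements were weaker than the one next to the gene, with 1 standing above the rest. The summit 6850 bp upstream (9608012 to 9608224) had a signal of 80.2 in replicate 1 and 95.9 in replicate 2, and its IDR signal of 176 ranked 42. Those 5702, 3859 and 1720 bp upstream had IDR signals of 112, 104 and 104, at ranks 113, 135 and 136. Those ranks are close together, and the replicates ordered the 3 elements differently. In replicate 1 their signals were 35.5, 48.7 and 37.5 in the same order, and in replicate 2 they were 78.5, 54.3 and 69.6. The summit 3189 bp upstream, inside W09C2.11, had 32.2 in replicate 1, 47.6 in replicate 2 and 73.1 in the IDR list. The farthest, 7723 bp upstream, had 23.3 in replicate 1, 20.3 in replicate 2 and 42.8 in the IDR list (rank 867), and was the weakest of the 11.

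IDR signals of the window ran from 42.8 to 1858 with a median of 112, against a median of 40.8 over the whole IDR list. All 11 were above that list median, and 5 were among the 100 strongest IDR peaks. Signals of the 4 elements inside the gene ran from 103 to 1858 with a median of 209, and those of the 7 upstream elements from 42.8 to 375 with a median of 104, so the ranges overlapped. Peak widths were 147 to 603 bp with a median of 284 bp, against 340 bp over the list.

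Both replicates listed every one of these elements near the top. A summit within 100 bp was found among the 1910 strongest of each replicate, as many as the IDR list holds, for 11 of 11 IDR summits of the window, against 55.1% of all IDR peaks. The pooled signal that ranks the IDR list comes from both replicates, so the share is not independent of it. All 11 were also above the median signal of that list, so these shares do not compare peaks of like strength. Ranks in replicate 1 ran from 3 to 457 with a median of 103, and in replicate 2 from 1 to 1652 with a median of 90. The element 7723 bp upstream had the last rank in both, and the other 10 elements ranked no lower than 242 in replicate 1 and 276 in replicate 2. Replicate 2 summits were 0 to 7 bp from the IDR summit, with a median of 3 bp, and replicate 1 summits 3 to 70 bp, with a median of 21 bp.

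Replicate 1 signals were lower than replicate 2 signals at 10 of the 11 elements, and the element 7723 bp upstream was the exception. The log2 ratio of replicate 1 over replicate 2 ran from -1.25 to 0.20 with a median of -0.69. Over all 1746 IDR peaks matched in both lists the median was -0.82, so the lists differ in scale and the elements shared that difference.

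**Figure D2:**
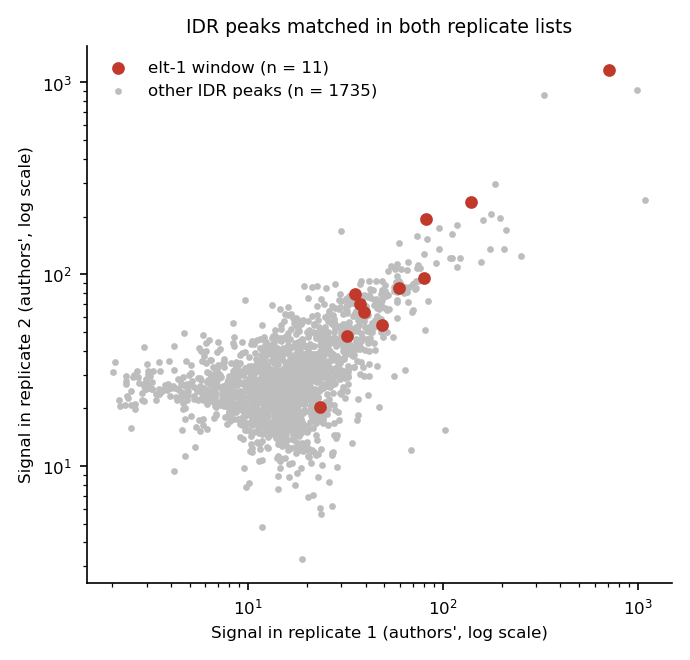
Signal in replicate 2 against signal in replicate 1 (both log scales) for the 11 IDR peaks of the elt-1 window (red) and the other IDR peaks matched within 100 bp in both lists (grey). The intron 2 element, at 709 and 1162, is the rightmost and uppermost red point, with only mitochondrial peaks near it, and the red point 7723 bp upstream, at 23.3 and 20.3, is inside the main cloud.

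Weaker summits were also listed in the window. The pooled list had 21 summits in the window, and 11 of them, or 52.4%, were IDR peaks, against 6.37% of the whole pooled list. The other 10 had signals of 5.47 to 26.4 with a median of 13.1, below the lowest IDR signal of 27.7. Of these, 7 lay upstream and 3 inside the gene. In position, 7 lay between the first and the last IDR summit, 1 farther upstream and 2 past the last. The strongest, in intron 4 (9616557 to 9616896), had a signal of 26.4 and ranked 2053, and its matches within 100 bp had a signal of 14.4 in replicate 1 and 7.80 in replicate 2. The other 2 inside the gene lay in the 3′ UTR, with pooled signals of 9.05 and 10.2. Both replicates had a summit within 100 bp for 2 of the 10. The authors name the relaxed lists peaks and background, and −log10 q values in the whole pooled list go down to 0.0361, so such summits can be background. Among these 10 the values differed: the summits in intron 4 and 4788 and 2329 bp upstream had 3.83, the highest value of the list. Replicate summits without an IDR summit within 100 bp included 4 among the 1910 strongest of replicate 1 and 2 among those of replicate 2.

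The stretch just beyond the gene's end was empty in the pooled list. No pooled summit lay within 20 kb downstream, and the nearest was 23743 bp away, with a signal of 7.78. The replicate lists had 4 summits each in the first 10 kb downstream. Those in replicate 1 had a median signal of 4.79, and those in replicate 2 had 8.17. No summit of one was within 100 bp of a summit of the other. Upstream, the pooled list had 14 summits in the first 10 kb, 1 at 10 to 20 kb (11367 bp away, signal 7.96) and 0 at 20 to 30 kb. The nearest IDR summits outside the window were 45235 bp upstream (signal 44.1) and 49967 bp downstream (signal 53.2).

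The summed pooled signal was 459 per kb in the gene and 108 per kb in the first 10 kb upstream, against 3.45 per kb over the nuclear genome. The strain label also names unc-119, a gene required for normal movement whose wild-type copy is widely used to mark C. elegans insertions, and it was profiled the same way. Per kb, elt-1 had 1.32 pooled summits in the gene and unc-119 had 1.27, against 0.299 over the nuclear genome. The summed signal differed: 459 per kb in elt-1 against 32.1 per kb in unc-119, and 108 against 4.75 per kb in the first 10 kb upstream. The highest IDR signal was 1858 at elt-1 and 60.5 at unc-119, where 3 IDR summits all lay in the gene.

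**Figure D3:**
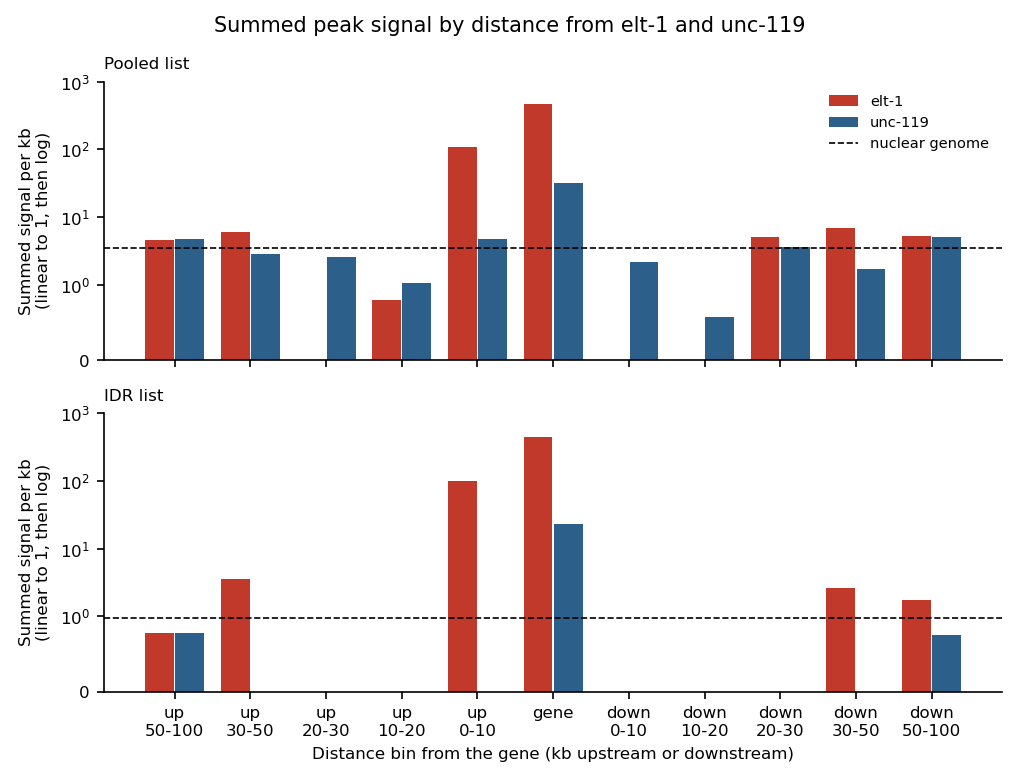
Summed peak signal per kb (linear up to 1, logarithmic above) by distance bin around elt-1 (red) and unc-119 (blue) in the pooled and IDR lists, with the nuclear genome's value as a dashed line. At elt-1 the pooled signal reaches 459 per kb in the gene and 108 per kb in the first 10 kb upstream and is 0 in the first 20 kb downstream; at unc-119 it reaches 32.1 per kb in the gene.

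The window makes up 0.145% of chromosome IV by length. It held 4.14% of the chromosome's 266 IDR peaks and 20.8% of their summed signal. IDR summits numbered 0.435 per kb in the window, against 0.0152 per kb over the chromosome and 0.0188 per kb over the nuclear genome.

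WGATAR, searched on both strands within 50 bp of the summit, was present at 7 of the 11 IDR summits, or 63.6%, against 39.7% of all IDR summits, 22.3% of all pooled summits and 19.8% of nuclear positions. The window itself is rich in the motif: 28.9% of its positions had a site within 50 bp. With 11 summits, 1 summit more or less moves the share by several percentage points. Among the 10 weaker pooled summits of the window, 2 had a site. By length, the 1111 bp within 50 bp of an IDR summit held 11 sites, or 9.90 per kb, and the rest of the window held 82, or 3.39 per kb.

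The sites at the summits were of 2 forms. There were 6 sites of the form TGATAA, against 40 in the whole window, and 5 of the form AGATAA, against 24 in the whole window. The forms that end in G were at 0 of the 11 summits. Over all IDR summits AGATAG was present at 9.74% and TGATAG at 3.93%, so 0 of 11 is near those shares. By summit, TGATAA was present at 4 of the 11, or 36.4%, against 9.16% of all IDR summits and 14.3% of window positions. AGATAA was also present at 4, against 23.2% of all IDR summits and 8.66% of window positions. Both forms occurred together only at the intron 2 summit.

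The number of sites varied with the element. The 2 strongest elements each had 3 sites within 50 bp, and each other element with a site had 1. At the distal intron 6 summit the AGATAA was centred 2.5 bp from the summit, and at the proximal one the TGATAA was 8.5 bp from it. At the upstream element next to the gene, the TGATAA sites were centred 32.5 and 9.5 bp before and 5.5 bp after the summit. A pair of sites within 30 bp of each other occurred at 2 of 11 summits, against 5.97% of all IDR summits. Without WGATAR were the summits 5702, 3189 and 1720 bp upstream and the one in intron 7. The GATA core alone was present at 10 of 11, against 62.9% of all IDR summits and 47.4% of nuclear positions, and was missing from these 101 bp at the summit 3189 bp upstream.

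**Figure D4:**
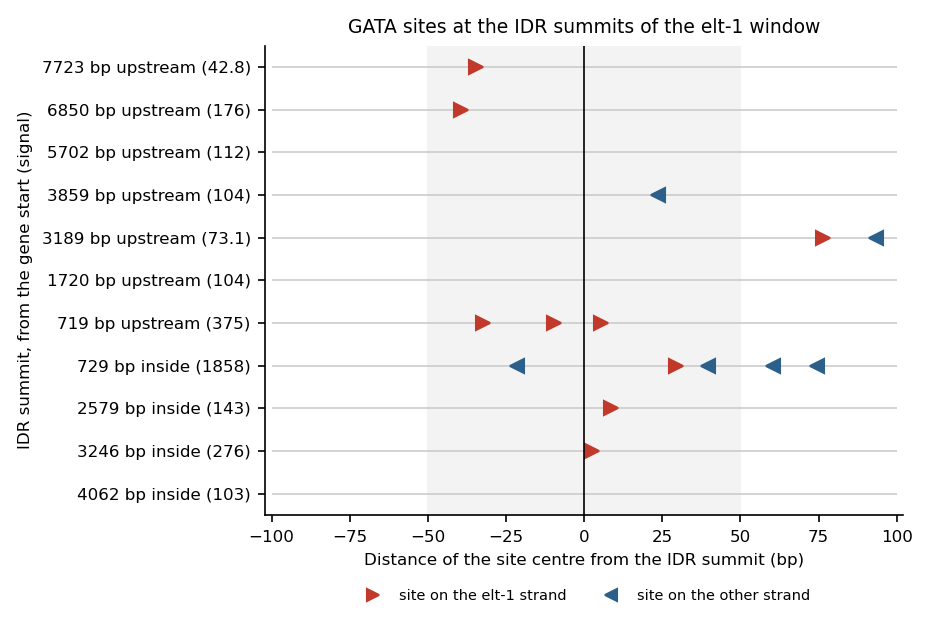
Positions of WGATAR sites within 100 bp of each IDR summit of the elt-1 window, in bp from the summit, with the elements in gene order from top to bottom and the IDR signal in brackets. Red arrowheads are sites on the elt-1 strand, blue ones sites on the other strand, and the shading marks 50 bp on each side. The 2 strongest elements, at 375 and 1858, each have 3 sites in the shaded range, and 4 elements have none there.

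The 2 other motifs searched were each present at 2 of the 11 summits, or 18.2%. For CANNTG, the E-box bound by bHLH factors, the share was 33.5% of all IDR summits and 33.8% of window positions. With 11 summits, a difference of this size rests on very few of them. GAGAGA, searched on both strands, was present at intron 2 and proximal intron 6, a share near the 22.6% of all IDR summits. It was present at 9.67% of all pooled summits, 6.73% of window positions and 5.18% of nuclear positions.

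Set beside all other genes, elt-1 was at the head of the nuclear order. At least 1 IDR summit lay in the gene or within 10 kb of it for 28.6% of 19985 protein-coding genes. Of the 19973 nuclear ones, 14273 had 0, 3918 had 1, and none but elt-1 had over 9. The 12 genes with more than 11 were mitochondrial, with windows that overlap across that small genome. The summed IDR signal of the elt-1 window, 3367, was also the highest of any nuclear gene. The next with a window clear of elt-1 was R02D5.1 on chromosome V, with 670. Windows of unequal length favour long genes, but by length elt-1 again had more, 0.435 summits per kb, against 0.385 per kb for ztf-14, the next nuclear gene.

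**Figure D5:**
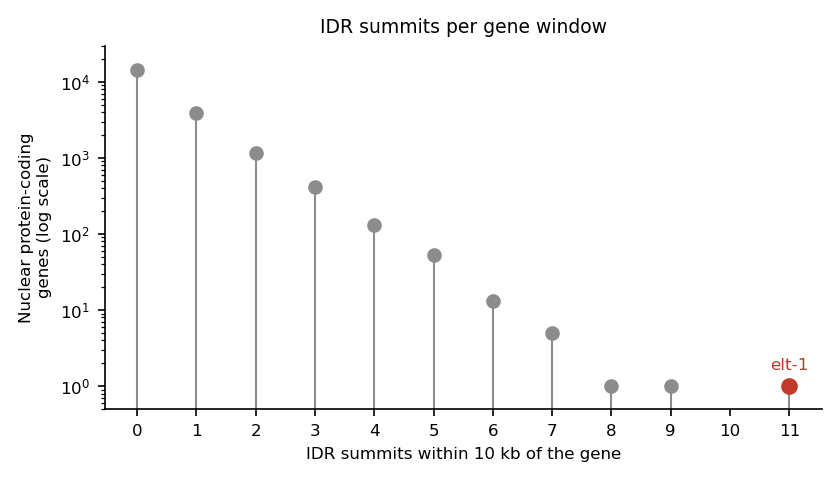
Number of nuclear protein-coding genes (log scale) by the number of IDR summits in the gene or within 10 kb of it. Counts fall from 14273 genes with 0 summits to 1 gene with 9, and elt-1 (red) has 11.

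The position depends on the flank. With the gene body alone, elt-1 had 4 IDR summits and 5 genes had 5 each, namely cwf-19L2, zfp-1, unc-62, lin-42 and hlh-30, named after their values were seen. A further 7 genes had 4 there, as elt-1 did. With 20 kb on each side, elt-1 still had 11 and egl-27 had 12. Another 7 genes also had 11 at that flank, where neighbours of elt-1 share its summits.

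The genes most like elt-1 in the number of IDR summits within 10 kb, taking windows that do not overlap, were 1 mitochondrial gene (WBGene00000829, with 28) and 4 nuclear genes. These were ztf-14, a zinc finger gene, with 9, egl-27, which encodes a chromatin factor of the MTA family, with 8, and sma-9, the Schnurri gene of body-size signalling, and mdl-1, a Mad-like bHLH gene, with 7 each. Their highest signals were 89.5 at ztf-14, 93.8 at egl-27, 205 at sma-9 and 175 at mdl-1, below the 1858 at elt-1. WGATAR was present at 4 of 9, 2 of 8, 4 of 7 and 2 of 7 of their summits in that order of genes, against 7 of 11 at elt-1. Their median signals, 38.0 to 47.6, were also below the 112 at elt-1.

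Of the 10 other GATA factor genes, 3 had an IDR summit within 10 kb, a share near the 28.6% of all genes. The seam cell factor egl-18 had 3, with a highest signal of 229. Its neighbour elt-6, also active in seam cells, had 2, and both (signals of 229 and 108) were also counted for egl-18. The epidermal factor elt-3 had 1, with a signal of 38.8. The intestinal factors elt-2 and elt-7, the small gene elt-4, and the endoderm and mesendoderm factors end-1, end-3, med-1 and med-2 had 0.

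Of 5 epidermal regulators of other families, 4 had an IDR summit in the same window, against 28.6% of all protein-coding genes. The list is short and was chosen with earlier results of these data known, so the difference was not tested. The nuclear receptor gene nhr-25 had 4, with a highest signal of 83.0, and nhr-23, a receptor gene needed for moulting, had 3, with a highest of 87.8. The engrailed homologue ceh-16 had 2 (highest 118), the zinc finger gene blmp-1 had 1 (31.7), and lin-26, required for epidermal differentiation, had 0. At every one of these genes both the number of summits and the highest signal were below those at elt-1.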

How the data were processed

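The series holds peak lists from ChIP-seq of eGFP-tagged ELT-1 in 2 biological replicates of L3 larvae, in 1 group. Per the authors' deposited library file lists, relaxed lists were called for each replicate and for both pooled, each with a control that was not analysed here, and the IDR list was derived from them. The sources used here do not give the aligner, the peak caller or the threshold on IDR. The deposited signal is the authors' peak value, on an unstated scale. The deposited −log10 q-values have a highest value of 3.83 that all IDR peaks share, so they were not used to rank. The deposited summit offset, added to the peak start, gave each summit. Read depth is unknown. The ce10 lists were not used.

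Analyses used Python 3.11.15, NumPy 2.4.6 and matplotlib 3.10.9, the RefSeq WBcel235 sequence and the Ensembl release 115 annotation. The IDR list was the 1910 strongest pooled peaks. Summits were matched between lists within 100 bp. Motifs were searched on both strands within 50 bp of summits, and the search was checked on simulated data. No tests were made, since there was 1 group. The window and the gene lists were chosen with earlier results of these data known. Named genes were elt-1, genes holding or nearest to its IDR summits, the 5 genes with the most IDR summits in non-overlapping windows, unc-119, and listed GATA and epidermal factors. Alternatives varied the flank, the matching distance, the motif and its distance, the list, and the replicates.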

Additional observations from a re-analysis of the deposited data

How the results depend on the processing

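Of 43 alternative values for 8 results, 32 stayed within 1.5 times the reported count, or within the spread between replicates for a value. With the gene body alone, the counts were 4 IDR summits and 7 pooled summits, against 11 and 21, by construction of the shorter stretch. Genes with more IDR summits than elt-1 numbered 12 in the 10 kb window, 5 with the gene body alone and 0 among nuclear genes only, an alternative chosen after seeing the data. Sites of the form WGATAR were at 7 of 11 summits within 50 bp, and at 4 within 25 bp or with AGATAA alone. The median signal of pooled summits in the window was 42.8. It was 103 in the gene body, 49.8 with 5 kb and 34.6 with 20 kb on each side, where other summits enter. Leaving out 1 replicate means taking the other replicate's own list, which has its own scale. Leave-one-out medians were 20.3 to 23.3, counts among the 1910 strongest 13 to 15, and whole-list counts 21 to 25. WGATAR was at 8 of 13 such summits in replicate 2 and at 6 of 15 in replicate 1, the latter near the 39.7% of all IDR summits. Genes with more stayed at 12 to 12, and intronic summits were 4 to 5. No paired analysis was possible because there is 1 group. With 2 replicates and unknown depth, neither an interval nor a smallest detectable signal can be given.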

Other observations

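Some of the elt-1 elements shared long runs of bases, noticed after the sequences had been seen and described here without a test. Among the 55 pairs of IDR summits of the window, compared over 100 bp on each side, the longest shared run was 17 bp, TTCAAGATAACCATCTT. It lay at the distal intron 6 element (9618237 to 9618253) and, on the opposite strand, at the element 3859 bp upstream (9611150 to 9611166). The run contains an AGATAA site, and these were its only 2 occurrences in the nuclear genome on either strand. Its inner 11 bp, GATAACCATCT, also occurred in the intron 2 element (9615776 to 9615786), centred 57 bp from that summit.

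The 11 bp word had 59 occurrences in the nuclear genome, and 13 of them were within 100 bp of an IDR summit. Outside the elt-1 window the count was 10 of 56, or 17.9%, at 10 IDR peaks with signals of 29.7 to 87.9 and a median of 40.8. By comparison, 0.697% of all 238156 WGATAR sites and 0.377% of nuclear positions were within 100 bp of an IDR summit. These are unlike sets: the word starts at GATA and need not complete a WGATAR, and the WGATAR sites are of every form. No other word of like length was taken as a background. Because the word was found in bound elements, the 3 occurrences at elt-1 do not count towards this comparison. Whether the added bases bear on binding was not tested.

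Other shared runs were counted in the same way. TGTGAAAGAGAGAGA was shared by the element 5702 bp upstream and the distal intron 6 element, and 0 of its 4 nuclear occurrences outside the window were within 100 bp of an IDR summit. TGATAAAGATCT was shared by the element 6850 bp upstream and the proximal intron 6 element. Of its 18 nuclear occurrences outside the window, 2 were within 100 bp of an IDR summit, against 0.697% of all WGATAR sites. With so few occurrences, these shares cannot be set apart from the 17.9% of the 11 bp word.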
